A study of Mus musculus with 77 samples.

Results

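The Nr4a genes Nr4a1 (Nur77), Nr4a2 (Nurr1) and Nr4a3 (Nor1) encode a family of orphan nuclear receptors, and their ribosome-bound messenger RNA was followed in both kinds of striatal projection neuron after dopamine loss and levodopa. The members were chosen by gene symbol, as every probe set on the array whose only annotated symbol is Nr4a1, Nr4a2 or Nr4a3. This gave 3 of the 18194 genes with such a probe set, measured by 10 probe sets, of which 1 belongs to Nr4a1, 6 to Nr4a2 and 3 to Nr4a3. All 10 lay above the filter on low values, which is set on the mean over all arrays and not on each group.

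Nr4a receptors are transcription factors that bind DNA without a known hormone, as monomers at the site called NBRE, as dimers with each other, or, for Nr4a1 and Nr4a2, as dimers with retinoid X receptors. Their activity is set mainly by how much of them is made, and they are immediate early genes, which a stimulated neuron transcribes within minutes through calcium, cAMP and the factors CREB and MEF2. In the striatum Nr4a1 is known as a gene under dopamine control in both pathways. Nr4a2 is known for the development and upkeep of midbrain dopamine neurons, where it drives tyrosine hydroxylase, and is scarce in the adult striatum.

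The RNA came from male mice of 9 to 14 weeks on a C57BL/6J background that carried EGFP-L10a, a ribosomal protein fused to a green fluorescent protein, from a bacterial artificial chromosome. In the Drd1::EGFP-L10a line (CP73) the dopamine D1 receptor gene drives the tag, which labels direct pathway spiny projection neurons (dSPN), and in the Drd2::EGFP-L10a line (CP101) the D2 receptor gene drives it, which labels indirect pathway neurons (iSPN). Tagged ribosomes were pulled down from the dorsal striatum on the operated side of a single mouse per array, a method called translating ribosome affinity purification. D2 receptor promoters are also active in cholinergic interneurons. Lesioned mice had received 6-hydroxydopamine (3.2 µg/µl), a toxin of dopamine neurons, in the medial forebrain bundle, and had been kept only if turning and limb use showed a successful lesion. Mock-lesioned mice had received the vehicle. From 3 weeks after surgery the mice received daily injections on days 1 to 9. The high regimen held levodopa at 3 mg/kg up to day 3 and at 6 mg/kg from day 4, which the submitters expected to bring on severe dyskinesia. The low regimen held 1 and then 2 mg/kg over the same days, and both came with benserazide at 12 mg/kg. The other groups received saline. The dSPN line gave 10 mock-lesioned arrays and 11 saline, 12 low-dose and 11 high-dose arrays of lesioned mice. The iSPN line gave 10, 7, 8 and 8 arrays in the same order, 77 in all.

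The labels of the lines were checked against markers. The mean of 7 dSPN markers lay between 10.58 and 10.76 (log2) in the groups of the dSPN line and between 7.32 and 7.85 in those of the iSPN line. The mean of 3 iSPN markers was 7.87 to 8.45 in the dSPN line and 11.95 to 12.10 in the iSPN line. The mean of 4 cholinergic interneuron markers was 3.56 to 3.72 in the dSPN line and higher, at 4.55 to 4.99, in the iSPN line. Their 3 tested members, Lhx8, Slc18a3 and Slc5a7, were called lower in dSPN than in iSPN in all 4 conditions, by -1.38, -1.12 and -1.02 in mock-lesioned mice. Chat, which makes acetylcholine, lay under the filter, between 2.67 and 2.92 in every group. The sample titles fall into 7 consecutive runs of which the labels give no meaning. No run holds both lines, and a line therefore cannot be told apart from its runs. In bulk RNA of this kind, fewer cells of a type and less RNA per cell cannot be told apart either.

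The sequences before the Nr4a start sites are shown because the 3 genes share a feature there. In the RefSeq window of 250 bases before the start, build GRCm38.p6, each member held 4 copies of TGACG, the core of the cAMP response element that CREB binds, counted on both strands. Capitals mark TGACG or its reverse complement CGTCA, and each sequence reads 5′ to 3′ on the gene's own strand. The Nr4a1 window is chr15:101266596-101266845 on the plus strand, inside the span of the gene record (chr15:101253902-101274795), which begins further upstream. The Nr4a2 window is chr2:57124004-57124253, before a gene on the minus strand (chr2:57106830-57124003). Of the Nr4a3 window only the 30 bases of chr4:48045070-48045099, plus strand, are shown, with 2 of its 4 copies, because the gene record (chr4:48045078-48086447) starts inside that window. By that record the Nr4a3 copies 213, 205 and 147 bases before the end of the window lie inside the gene and not before its start.
Nr4a1: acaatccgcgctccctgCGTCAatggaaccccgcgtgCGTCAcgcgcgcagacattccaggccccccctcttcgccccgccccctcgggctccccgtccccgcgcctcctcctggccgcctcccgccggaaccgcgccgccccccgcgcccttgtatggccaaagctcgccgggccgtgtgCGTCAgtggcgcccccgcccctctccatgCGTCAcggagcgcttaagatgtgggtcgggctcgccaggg
Nr4a2: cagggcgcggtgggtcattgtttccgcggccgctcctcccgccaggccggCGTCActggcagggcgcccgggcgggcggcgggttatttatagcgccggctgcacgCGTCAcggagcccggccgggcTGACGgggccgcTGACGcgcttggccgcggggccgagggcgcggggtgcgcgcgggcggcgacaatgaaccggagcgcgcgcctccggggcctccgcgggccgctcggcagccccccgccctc
Nr4a3: agggTGACGtagcgtcccatgtCGTCAcat

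Over 32851 windows of the same length, 17.8% held TGACG at least once and 0.137% held it 4 times or more. The windows of the members were also rich in G and C, at 74.4% for Nr4a1, 80.0% for Nr4a2 and 63.6% for Nr4a3, against a median of 52.4% over all windows. No windows matched for base composition were compared. The copies began 233, 213, 69 and 40 bases before the start in Nr4a1, 200, 144, 123 and 111 bases before it in Nr4a2, and 231, 213, 205 and 147 bases before it in Nr4a3. The full palindrome TGACGTCA, which contains TGACG on each strand, was found in 1.55% of all windows and in no member's window. The NBRE itself, AAAGGTCA (1.34% of windows), and the AP-1 site TGANTCA (6.75%) were likewise without a match in these windows. A match is a run of letters and not a measured binding site.

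In mock-lesioned mice, with dopamine intact, no difference in the Nr4a genes was found between the lines. Nr4a1 had a lowest, median and highest log2 value of 6.46, 7.63 and 8.38 in dSPN and of 6.49, 7.13 and 9.25 in iSPN. Nr4a2 had 4.27, 5.05 and 6.52 in dSPN and 3.81, 5.02 and 5.77 in iSPN. Nr4a3 had 6.29, 7.55 and 8.67 in dSPN and 6.68, 7.72 and 8.50 in iSPN. The ranges overlapped for every member. The differences of dSPN minus iSPN were 0.26 for Nr4a1 (95% interval -0.26 to 0.78), 0.35 for Nr4a2 (-0.21 to 0.90) and -0.18 for Nr4a3 (-0.70 to 0.35). In the limma fit over all arrays none of the 3 passed an adjusted p of 0.05, where 22.5% of the 13271 genes tested did, and the intervals leave room for differences of up to 0.90 in size.

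**Figure D1:**
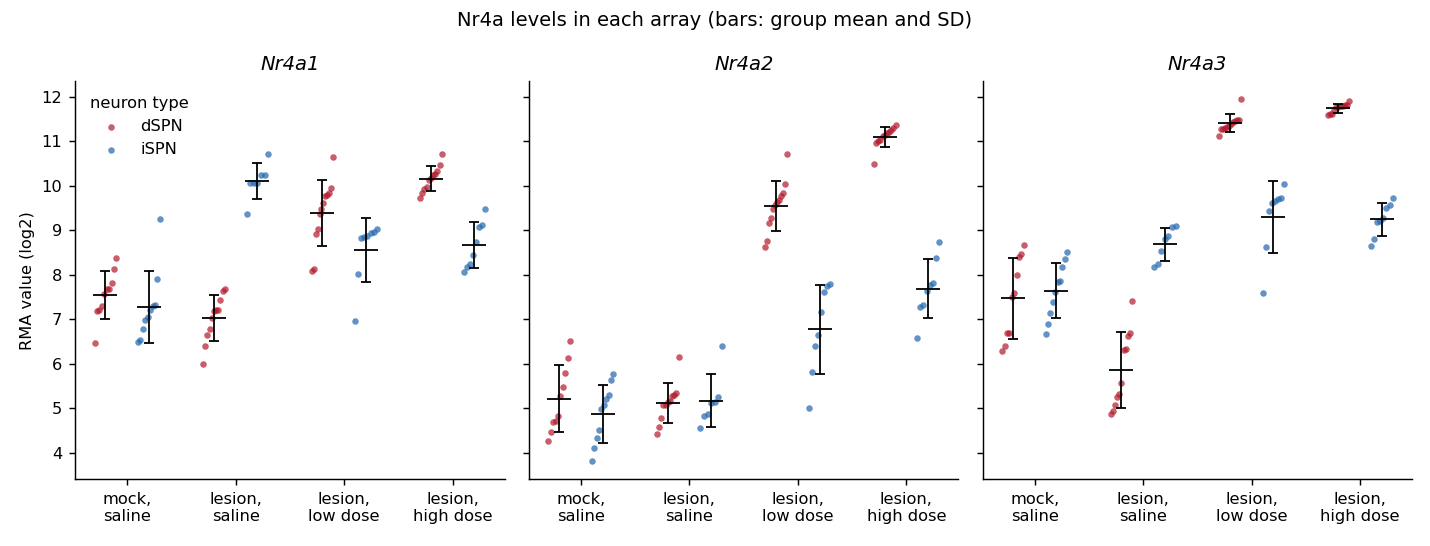
RMA values (log2) of Nr4a1, Nr4a2 and Nr4a3 in each of 77 arrays, by surgery and drug, with dSPN in red and iSPN in blue; bars give the group mean and SD. After lesion with saline Nr4a1 stands at 9.37 to 10.71 in iSPN and at 6.01 to 7.69 in dSPN, and under the high dose Nr4a2 stands at 10.50 to 11.36 in dSPN and at 6.58 to 8.74 in iSPN.

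Dopamine loss lowered Nr4a3 in dSPN and raised Nr4a1 and Nr4a3 in iSPN. In dSPN after lesion with saline, Nr4a3 had a lowest, median and highest value of 4.88, 5.57 and 7.40, and 6 of 11 arrays lay below the lowest mock array. Nr4a3 fell by 1.61 (SE 0.26, adjusted p = 1.29e-05 in limma), which is 3.06-fold and the 8th largest fall of all genes, although the ranges of the groups overlapped. Nr4a1 had 6.01, 7.19 and 7.69 and differed from mock by -0.52 (SE 0.26, adjusted p = 0.374), and Nr4a2 had 4.42, 5.15 and 6.16 and differed by -0.10 (SE 0.27, adjusted p = 0.943). So 1 of 3 members passed, where 2.48% of all genes did, 0.64% with a rise and 1.84% with a fall. Within the only run that holds both groups, with 5 lesioned and 4 mock arrays, the change of Nr4a3 was -2.00 (SE 0.36, adjusted p = 0.0971).

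In iSPN the lesion raised Nr4a1 above every mock array. After lesion with saline Nr4a1 had a lowest, median and highest value of 9.37, 10.07 and 10.71, and all 7 arrays lay above the highest of 10 mock arrays. The rise was 2.83 (SE 0.29, adjusted p = 1.54e-11), or 7.10-fold, the 4th largest of all genes. Nr4a1 was the only member whose ranges did not overlap, and 0.407% of all genes were so separated upward in this comparison. Nr4a3 had 8.17, 8.81 and 9.09, with 5 of 7 arrays above the highest mock array, and rose by 1.04 (SE 0.29, adjusted p = 0.0182). Nr4a2 had 4.55, 5.13 and 6.39 and differed by 0.30 (SE 0.31, adjusted p = 0.656). Thus 2 of 3 members rose, against 3.19% of all genes, with 3.01% falling and 6.2% called in all. In the same comparison 4 of 7 dSPN markers fell, Pdyn (-0.99), Isl1 (-0.93), Drd1 (-0.47) and Tac1 (-0.42), with a median of -0.47 over the list, and their part was not tested. The 2 runs that hold both groups had 1 lesioned and 9 mock arrays, and 2 and 1. There Nr4a1 differed by 3.37 and 3.03 and Nr4a3 by 1.34 and 1.95, with adjusted p-values of 0.446, 0.131, 0.999 and 0.201 in that order. With run as a fixed block the rise of Nr4a1 was 3.23 (adjusted p = 1.12e-05) and that of Nr4a3 was 1.60 (adjusted p = 0.0796). Array 6 of the lesioned group had a cortical pyramidal neuron marker mean of 6.35, where the mean of its group was 3.60. Leaving out each array in turn, that one included, kept the change of Nr4a1 between 2.73 and 3.05 and that of Nr4a3 between 0.93 and 1.14.

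The lesion effect itself differed between the lines for Nr4a1 and Nr4a3. Taken as dSPN effect less iSPN effect, the difference was -3.35 for Nr4a1 (SE 0.39, adjusted p = 7.12e-10) and -2.65 for Nr4a3 (SE 0.39, adjusted p = 9.03e-07), which rank 7th and 12th from the lowest of 13271 genes. For Nr4a2 it was -0.40 (95% interval -1.21 to 0.41, adjusted p = 0.682). Such a difference was found in 4.86% of all genes. After lesion with saline the lines were therefore far apart. As dSPN minus iSPN, Nr4a1 differed by -3.09 (adjusted p = 2.49e-14) and Nr4a3 by -2.83 (adjusted p = 1.11e-12), both without overlap of the ranges, and Nr4a2 by -0.05 (adjusted p = 0.932). In all, 22.2% of genes differed between the lines here, and 2% were lower in dSPN without overlap.

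Levodopa raised all 3 members in dSPN, and at the high dose Nr4a2 and Nr4a3 had the largest rises of all genes tested. The levodopa effects below share the lesioned saline arrays with the lesion effects above, so the values stand side by side and are not set against each other. Under the high dose Nr4a2 had a lowest, median and highest value of 10.50, 11.14 and 11.36, where lesioned saline arrays reached at most 6.16. It rose by 5.98 (SE 0.26, adjusted p = 2.08e-31), or 63.1-fold. Nr4a3 had 11.60, 11.77 and 11.91, where lesioned saline arrays reached at most 7.40, and rose by 5.89 (SE 0.25, adjusted p = 4.95e-32), or 59.3-fold. Nr4a1 had 9.72, 10.19 and 10.71 against at most 7.69, and rose by 3.14 (SE 0.25, adjusted p = 6.48e-18), or 8.84-fold, which ranks 55th. All 3 members passed without overlap of the ranges. In this comparison 45.6% of all genes passed, 20.1% rose, 25.5% fell, and 6.34% were separated upward without overlap. Within the run that holds 9 high-dose and 6 saline arrays the rises were 3.26 for Nr4a1, 5.89 for Nr4a2 and 5.47 for Nr4a3, each with an adjusted p of at most 6.49e-09.

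The low dose also raised all 3 members in dSPN. Nr4a3 had a lowest, median and highest value of 11.13, 11.37 and 11.95 and rose by 5.55 (SE 0.25, adjusted p = 1.09e-30), the largest rise of any gene. Nr4a2 had 8.63, 9.61 and 10.71 and rose by 4.43 (SE 0.26, adjusted p = 1.99e-24), the third largest. Nr4a1 had 8.08, 9.55 and 10.65 and rose by 2.37 (SE 0.25, adjusted p = 9.41e-13), at rank 57. None of the 12 arrays overlapped the saline range for any member. Here 34.1% of all genes passed, 15.1% rose, 19% fell and 3.13% were separated upward. No run holds both low-dose and lesioned saline arrays of dSPN, so there is no value within a run. A fixed block for run, which links these groups through the mock and high-dose arrays, gave 2.51, 4.39 and 5.65 for Nr4a1, Nr4a2 and Nr4a3.

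Against each other, the doses differed for Nr4a2 in dSPN. The high dose stood 1.55 above the low dose for Nr4a2 (SE 0.26, adjusted p = 2.25e-05, 10th of all genes), 0.77 for Nr4a1 (SE 0.25, adjusted p = 0.0389) and 0.34 for Nr4a3 (95% interval -0.15 to 0.83, adjusted p = 0.483). The ranges overlapped for all 3, and 6.8% of genes passed, 3.14% as higher at the high dose. The difference for Nr4a1 did not pass with run as a fixed block (0.69, adjusted p = 0.523), nor when any of 9 single arrays was left out, which were low-dose arrays 3, 5, 6 and 10 and high-dose arrays 2, 3, 6, 7 and 10 (adjusted p up to 0.0960). Within the run that holds 2 high-dose and 11 low-dose arrays the difference for Nr4a2 was 1.72 (adjusted p = 0.116) and that for Nr4a1 0.53 (adjusted p = 0.749). On the log2 scale the low dose gave 94.3% of the high-dose rise for Nr4a3, 75.3% for Nr4a1 and 74.1% for Nr4a2.

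Levodopa carried the dSPN levels well past those of mock-lesioned mice. The high dose lay above mock by 2.62 for Nr4a1, 5.88 for Nr4a2 and 4.28 for Nr4a3, with adjusted p-values of 5.68e-14, 4.96e-30 and 9.97e-24, and every high-dose array was above the highest mock array for each member. The low dose lay above mock by 1.85, 4.33 and 3.94 (adjusted p of 1.05e-08, 6.05e-23 and 6.36e-22), with 10 of 12 arrays above the highest mock array for Nr4a1 and 12 of 12 for both others. Within the run with 1 low-dose and 4 mock arrays the low-dose differences were 1.34 for Nr4a1 (adjusted p = 0.366), 4.91 for Nr4a2 (adjusted p = 0.0148) and 3.32 for Nr4a3 (adjusted p = 0.141), and within the run with 11 and 2 all 3 passed. Of all genes 43.4% and 30.2% passed in these comparisons, 18.4% and 12.5% as higher than mock, and 5.7% and 2.78% lay above mock without overlap. Markers of glia and of spiny projection neurons moved with the drug in this line. The mean of 7 oligodendrocyte markers was 8.21 with saline, 7.12 with the low and 7.01 with the high dose, and that of 7 astrocyte markers was 6.90, 5.94 and 6.00. Against lesioned saline, 25.5% of all genes fell and 20.1% rose at the high dose, and 19% fell and 15.1% rose at the low dose. In these comparisons 6 of 7 oligodendrocyte markers fell at either dose. The median change of the list was -1.30 at the high and -1.32 at the low dose (all genes -0.04 at both). Of the astrocyte markers 5 fell at the high and 4 at the low dose. All 6 markers shared by spiny projection neurons also fell at both doses, most of all Adcy5, by 0.74 at the high and 0.66 at the low dose. Of the 3 iSPN markers, Drd2 (-0.72 and -0.67) and Gpr6 (-0.77 and -1.18) fell at the high and low dose. The other, Penk, rose by 0.48 at the high dose and did not pass at the low dose. Their part in the rises was not tested.

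**Figure D2:**
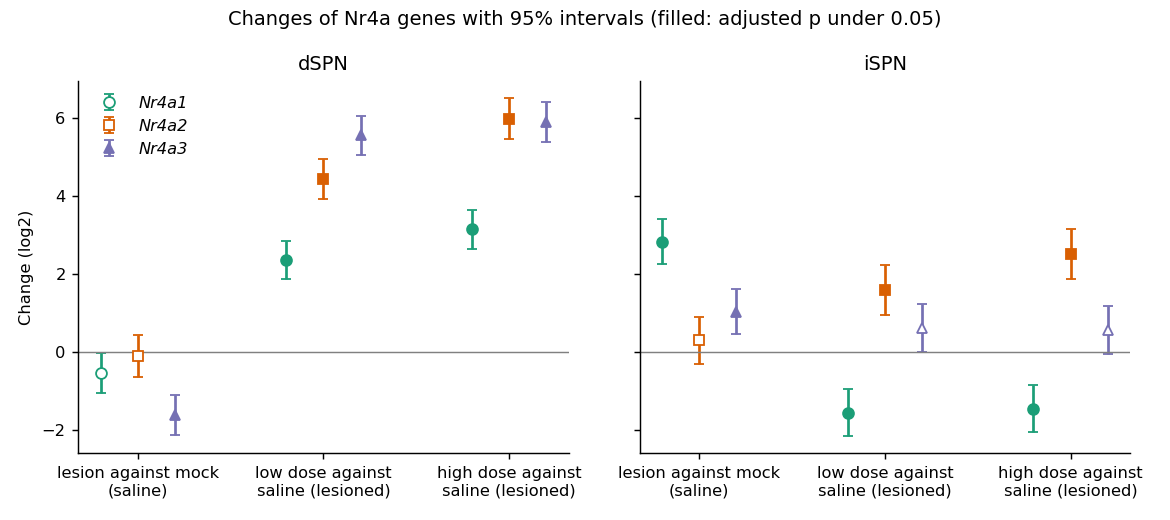
Changes (log2) of Nr4a1 (circles), Nr4a2 (squares) and Nr4a3 (triangles) in dSPN (left) and iSPN (right) for lesion against mock and for each dose against saline in lesioned mice; bars are 95% intervals from the limma fit, and filled symbols passed an adjusted p of 0.05. Nr4a1 rises by 2.83 with the lesion in iSPN and by 3.14 with the high dose in dSPN, and changes by -1.44 with the high dose in iSPN.

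In iSPN levodopa moved Nr4a1 and Nr4a2 in opposite directions. Nr4a1 had a lowest, median and highest value of 8.07, 8.59 and 9.49 under the high dose, below the 10.07 median of lesioned saline arrays. It changed by -1.44 (SE 0.30, adjusted p = 0.000635), which is 2.72-fold lower and the 11th largest fall, with the ranges overlapping. Under the low dose it had 6.97, 8.86 and 9.04 and fell by 1.55 (SE 0.30, adjusted p = 0.000493), the 4th largest fall, with all 8 arrays below the lowest saline array, as 0.166% of all genes were. The falls did not bring Nr4a1 back to mock. It remained higher than in mock by 1.39 under the high dose (adjusted p = 0.000135) and by 1.28 under the low dose, although 1 of 8 high-dose arrays and none of 8 low-dose arrays lay above the highest mock array. Within runs the falls were smaller or equal and did not pass. They were -1.14 in the run with 8 high-dose and 2 saline arrays (adjusted p = 0.241) and -1.55 in the run with 8 low-dose and 4 saline arrays (adjusted p = 0.172). With run as a fixed block they were -1.21 (adjusted p = 0.150) and -1.55 (adjusted p = 0.00807).

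Nr4a2 rose in iSPN with levodopa. Under the high dose it had a lowest, median and highest value of 6.58, 7.70 and 8.74 and rose by 2.52 (SE 0.32, adjusted p = 2.39e-08), or 5.73-fold, the third largest rise. All 8 high-dose arrays lay above the saline range, as they did for 1.22% of all genes. Under the low dose it had 5.01, 6.90 and 7.80 and rose by 1.60 (SE 0.32, adjusted p = 0.000689), the 8th largest rise, with overlap. Within runs the rises were 2.62 for the high dose (adjusted p = 0.0404) and 1.54 for the low dose (adjusted p = 0.351). Nr4a3 had 8.66, 9.24 and 9.74 under the high and 7.59, 9.63 and 10.04 under the low dose, with changes of 0.56 (adjusted p = 0.271) and 0.61 (adjusted p = 0.287) that did not pass. At the high dose 2 of 3 members were called, 1 higher and 1 lower, against 9.86% of all genes (6.27% higher, 3.59% lower). At the low dose it was again 1 higher and 1 lower, against 4.18% (2.41% higher, 1.77% lower). High against low dose, the 3 members differed by 0.11, 0.92 and -0.05 and none passed, where 0.173% of all genes did. Against mock all 3 were higher at the high dose, by 1.39, 2.82 and 1.60, and at the low dose, by 1.28, 1.91 and 1.65, with 18.7% and 11% of all genes called and 10.4% and 5.89% called higher. With run as a fixed block the low-dose differences from mock did not pass for Nr4a1 (1.67, adjusted p = 0.188) and Nr4a2 (1.97, adjusted p = 0.118). Within the run with 8 high-dose arrays and 1 mock array, the high-dose differences from mock were 1.88 for Nr4a1 (adjusted p = 0.168), 3.37 for Nr4a2 (adjusted p = 0.0512) and 2.57 for Nr4a3 (adjusted p = 0.0395). In the high-dose comparison with mock 6 of 7 oligodendrocyte markers fell (median of the list -0.66, all genes 0.01), as did 4 of 7 dSPN markers, while 2 rose. In the low-dose comparison none of 7 oligodendrocyte and 3 of 7 dSPN markers fell. The part of these markers was not tested.

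Array 3 of the iSPN low-dose group was the lowest of its 8 arrays for every member, at 6.97 for Nr4a1, 5.01 for Nr4a2 and 7.59 for Nr4a3. Its cholinergic marker mean was 5.39 (group mean 4.99) and its oligodendrocyte marker mean 9.03 (group mean 8.57). Without it the iSPN low-dose changes kept their calls, but the difference between the lines at the low dose for Nr4a1, 0.83 (adjusted p = 0.0107), became 0.60 (adjusted p = 0.0687).

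The response to levodopa differed between the lines for all 3 members. At the high dose the dSPN effect exceeded the iSPN effect by 5.33 for Nr4a3 (SE 0.40, adjusted p = 2.37e-18), the largest of all genes, 4.59 for Nr4a1 (SE 0.39, adjusted p = 1.13e-15) and 3.46 for Nr4a2 (SE 0.42, adjusted p = 3.21e-10). At the low dose it was 4.94, 3.92 and 2.83 in the same order, with adjusted p-values of 8.94e-17, 9.86e-13 and 2.23e-07. At the high dose 25% of all genes showed such a difference and at the low dose 14.8%. The difference between the lines in the step from low to high dose was 0.67 for Nr4a1, 0.63 for Nr4a2 and 0.39 for Nr4a3, and none passed (1.14% of genes did). As levels, dSPN stood above iSPN at the high dose by 1.49 for Nr4a1, 3.41 for Nr4a2 and 2.50 for Nr4a3, all without overlap (5.18% of genes), and at the low dose by 0.83, 2.77 and 2.11, without overlap for Nr4a2 and Nr4a3 (2.61% of genes). Of all genes 43.1% and 36.7% differed between the lines at these doses.

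Beside the rise of Nr4a2 in iSPN stands the level of dSPN markers in the same arrays. At the high dose the iSPN level as a percentage of the dSPN level was 9.41% for Nr4a2, 17.7% for Nr4a3 and 35.5% for Nr4a1. For the 7 dSPN markers it was 0.992% for Eya1, 8.24% for Sfxn1, 10.0% for Slc35d3, 11.1% for Pdyn, 12.2% for Isl1, 22.0% for Drd1 and 28.8% for Tac1. Nr4a2 and Nr4a3 thus lay inside the range of the markers, and Nr4a1 lay above it. In iSPN under the high dose 2 of the 7 markers rose, Pdyn (2.09, adjusted p = 2.97e-08) and Tac1 (0.76), which encode the opioid and tachykinin peptides of dSPN, and 3 fell, Eya1 (-1.38, adjusted p = 0.000127), Slc35d3 (-1.04) and Sfxn1 (-0.60). In dSPN itself Pdyn (2.10) and Tac1 (0.56) rose at that dose, and Slc35d3 (-0.92) and Drd1 (-0.32) fell. Eya1 (-0.38), Sfxn1 (-0.10) and Isl1 (-0.03) did not pass there. Of all genes 6.27% rose and 3.59% fell at the high dose in iSPN, and 20.1% rose and 25.5% fell in dSPN. The part of carried-over RNA in the iSPN values under levodopa was not tested. For the rise of Nr4a1 and Nr4a3 with the lesion the dSPN level is the lower one, at 7.02 and 5.86 on average against 10.11 and 8.69 in iSPN. The part of carried-over RNA in the lesion comparison was not tested either.

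**Figure D3:**
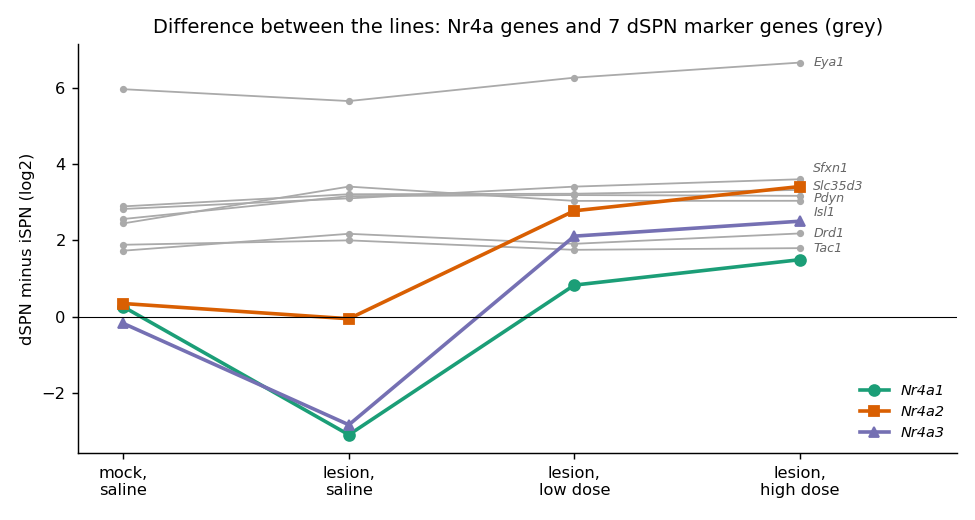
Mean log2 value in dSPN minus that in iSPN for Nr4a1, Nr4a2 and Nr4a3 (coloured) and 7 dSPN marker genes (grey) in each of the 4 conditions. Nr4a2 goes from -0.05 after lesion with saline to 3.41 under the high dose, among the markers. Nr4a3 goes from -2.83 to 2.50, also among the markers, and Nr4a1 goes from -3.09 to 1.49.

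Put in order over the 8 groups, Nr4a1 was high in opposite situations. Its mean was 10.16 (SD 0.29, n = 11) in dSPN under the high dose and 10.11 (SD 0.40, n = 7) in iSPN after lesion with saline, which differed by less than their spread (0.05, limma adjusted p = 0.900). Then came dSPN under the low dose (9.39), iSPN under the high (8.67) and low (8.56) doses, which did not differ beyond their spread, and dSPN mock (7.54), iSPN mock (7.28) and dSPN after lesion with saline (7.02), which did not either. Nr4a2 stood at 11.10 in dSPN under the high and 9.55 under the low dose, at 7.69 and 6.77 in iSPN under the high and low doses, and between 4.87 and 5.22 in the 4 groups without levodopa, none of which differed from its neighbour. Nr4a3 stood at 11.75 and 11.41 in dSPN with levodopa, at 9.30, 9.24 and 8.69 in lesioned iSPN, at 7.65 and 7.47 in the mock groups and at 5.86 in dSPN after lesion with saline. Every member had its smallest SD in its highest group, dSPN under the high dose. The SD there was 0.29 for Nr4a1, 0.23 for Nr4a2 and 0.10 for Nr4a3, and that of Nr4a3 in dSPN mock was 0.91.

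The members did not change equally. The change of a member minus that of another was taken within each array and tested between groups by permutation, two-sided, for 3 pairs and 6 effects, with adjustment over the 18 tests. In dSPN the rise of Nr4a2 exceeded that of Nr4a1 by 2.84 at the high dose and 2.06 at the low dose, and that of Nr4a3 exceeded it by 2.75 and 3.18 (permutation p = 1e-05 each, the smallest that 100000 resamples give, adjusted p = 4.5e-05). Nr4a3 rose more than Nr4a2 at the low dose by 1.12 (permutation p = 0.00271, adjusted p = 0.00406), while at the high dose their rises differed by -0.09 (permutation p = 0.784). Each member was read here at the probe set that represents it, and the order of Nr4a2 and Nr4a3 depends on that choice. In lesioned dSPN, Nr4a2 probe set 1455034_at had a mean of 2.56 with saline, under the filter of 3.55, and 8.29 under the low dose. Nr4a3 probe set 1421080_at had 6.02 and 10.74 in the same groups. In iSPN the change of Nr4a2 less that of Nr4a1 was -2.53 with the lesion (exact permutation p = 0.000771, adjusted p = 0.00126), 3.96 at the high dose and 3.16 at the low dose (exact permutation p = 0.000155 for each dose, the smallest this design allows, adjusted p = 0.00028). Nr4a1 was thus the member that the lesion raised most in iSPN, and Nr4a2 the only member called higher with levodopa there.

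**Figure D4:**
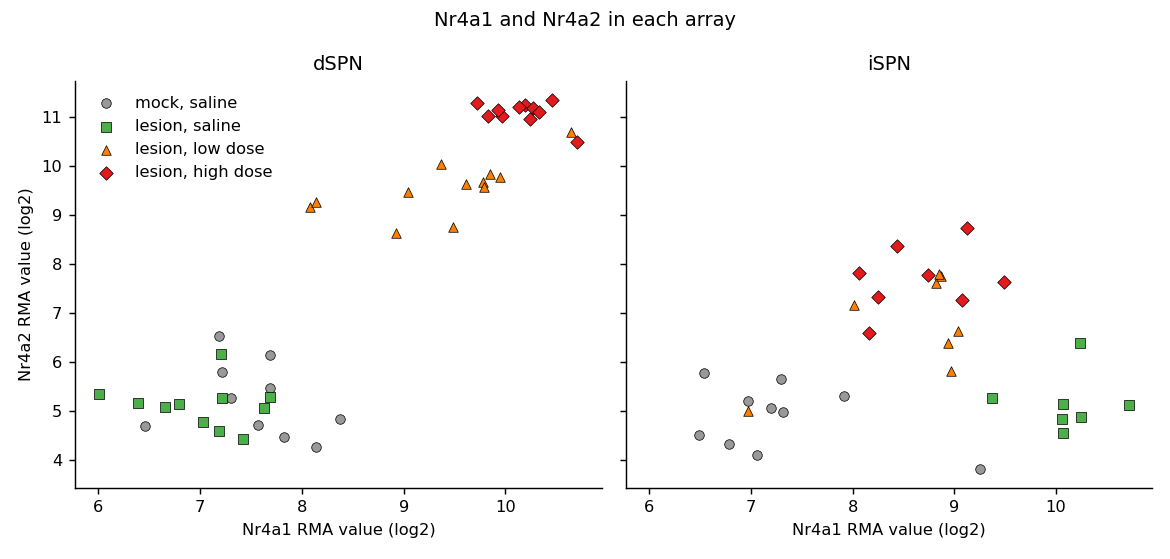
Nr4a2 against Nr4a1 (RMA values, log2) in each array of dSPN (left) and iSPN (right), with a symbol for each condition. In dSPN both are high under levodopa, whereas in iSPN the 7 lesioned saline arrays have Nr4a1 at 9.37 to 10.71 with Nr4a2 at 4.55 to 6.39, and the 8 high-dose arrays have Nr4a1 at 8.07 to 9.49 with Nr4a2 at 6.58 to 8.74.

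Of the 6 probe sets of Nr4a2, 4 rose strongly with levodopa in dSPN and 2 did not. There the representative 1447863_s_at was joined by 1450749_a_at, 1450750_a_at and 1455034_at, which rose in dSPN by 4.31, 7.29 and 7.22 at the high dose and in iSPN by 1.24, 3.40 and 3.11, all called, and correlated with each other at r of 0.93 to 0.98 over the 77 arrays. Of these, 1455034_at had means of 2.56 to 3.41 in the groups without levodopa, under the filter of 3.55. It passed that filter only through the levodopa groups. The other 2, 1433422_at and 1433423_at, both listed under the same cDNA, stayed between 5.61 and 6.05 in every group mean, with high-dose changes in dSPN of 0.05 (adjusted p = 0.655) and 0.23 (adjusted p = 0.0277). Which transcript they report was not tested. In the test over 23974 probe sets 44.9% passed at the high dose in dSPN. The step from low to high dose in dSPN was 1.76, 1.92 and 1.49 at the 3 probe sets beside 1447863_s_at, without overlap of the ranges, as in 0.0793% of all probe sets (5.89% passed). Over all probe sets 8.71% passed at the high dose in iSPN.

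For Nr4a3, 1421079_at, 1421080_at and 1438796_at all fell with the lesion in dSPN, by 1.19, 0.76 and 1.61 (adjusted p of 0.0168, 0.0424 and 1.76e-05), and all rose at the high dose in dSPN, by 6.31, 5.10 and 5.89. With the lesion in iSPN they differed by 0.82, 0.73 and 1.04, of which only the last passed (adjusted p of 0.170, 0.0629 and 0.0203). At the high dose in iSPN they differed by 0.91, 0.86 and 0.56, of which only 1421080_at passed (adjusted p = 0.0229). The mean of 1421079_at in lesioned saline dSPN was 3.36, under the filter of 3.55. With the lesion 1.99% of probe sets passed in dSPN and 5.39% in iSPN. Nr4a1 has a single probe set, so its changes have no such check.

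**Figure D5:**
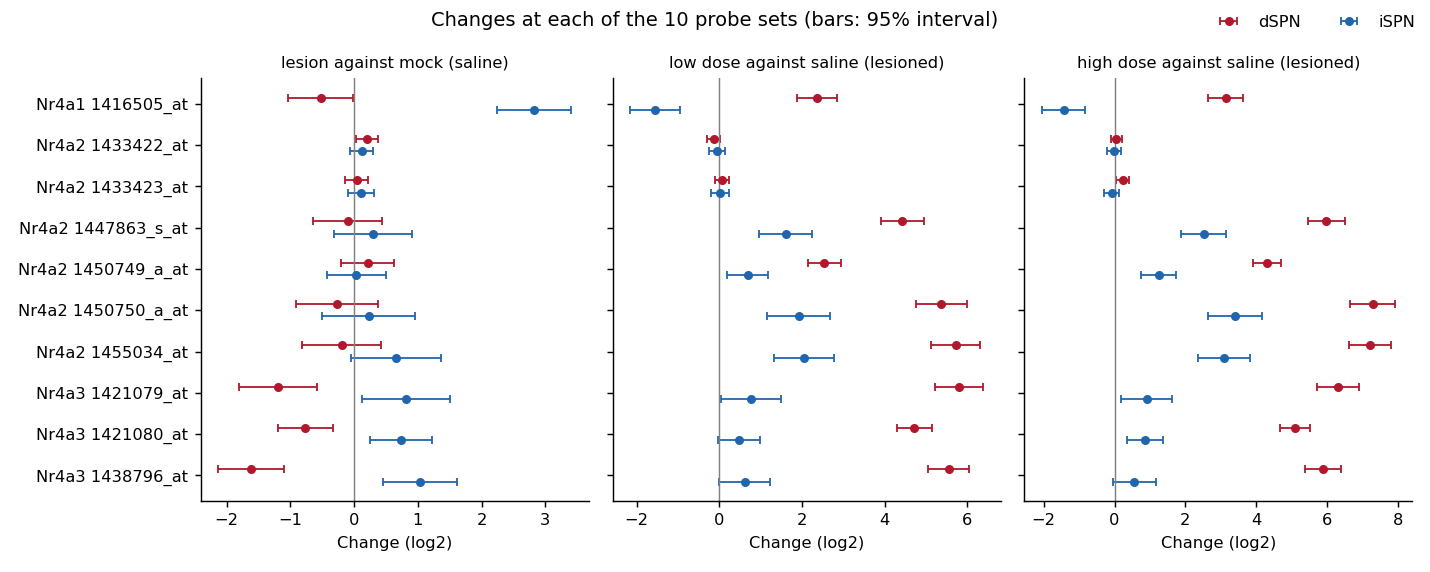
Change (log2, with 95% interval) at each of the 10 probe sets of the Nr4a genes for lesion against mock, low dose against saline and high dose against saline, with dSPN in red and iSPN in blue. In dSPN 4 Nr4a2 probe sets rise with levodopa, while 1433422_at changes by 0.05 and 1433423_at by 0.23 at the high dose, and all 3 of Nr4a3 rise by 5.10 to 6.31.

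Among upstream regulators of Nr4a genes, Crem changed most with levodopa in dSPN and with the lesion in both lines. With levodopa in iSPN it stood at 8.94 and 8.83 under the high and low dose, against 8.88 with saline. It is a CREB-family gene whose inducible product represses cAMP-driven transcription. Of 18 CREB and MEF2 pathway genes tested, 5 rose and 7 fell at the high dose in dSPN (median -0.11, all genes -0.04), and 5 rose and 6 fell at the low dose. The shares called were 66.7% and 61.1%, where 45.6% and 34.1% of all genes were called, 20.1% and 15.1% as higher. Crem rose by 3.91 and 3.31, Hdac5, a histone deacetylase that represses MEF2, by 1.00 and 0.79, and Srf, serum response factor, by 0.67 and 0.51. Crtc1, a CREB coactivator, fell by 1.19 and 0.71, Elk1 by 0.88 and 0.70, and the acetyltransferase Crebbp by 0.55 and 0.49. With the lesion Crem changed by -0.82 in dSPN (adjusted p = 0.00641), where Elk1 rose (0.38), and by 1.41 in iSPN (adjusted p = 2.49e-06), where Creb1 also rose (0.57) and Elk1 fell (-0.51). In iSPN none of the 18 passed at the high dose, and Crtc2 rose at the low dose (0.58), where 9.86% and 4.18% of all genes were called.

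The partners and cofactors of Nr4a receptors changed by less than the members at the high dose in dSPN. Of 12 tested, 1 rose and 5 fell at the high dose in dSPN (median -0.07, all genes -0.04), and their share called, 50%, was near the 45.6% of all genes. Rcor1, the corepressor CoREST through which Nr4a2 can silence genes, rose by 1.20 (adjusted p = 9.56e-11), and by 1.11 at the low dose and 0.77 at the high dose in iSPN. The dimer partners Rxra and Rxrb fell by 0.87 and 0.40, the coactivators Ncoa1 and Ncoa2 by 0.68 and 0.58, and the kinase Gsk3b by 0.58. Rxrg, the retinoid X receptor of the striatum, had group means between 8.84 and 9.33 and changed by -0.06 at the high dose in dSPN (adjusted p = 0.790). At the low dose 2 rose and 4 fell in dSPN, where 34.1% of all genes were called. In iSPN none passed at the low dose (4.18% of all genes), and at the high dose Rcor1 and Rxrb rose and Ncoa1 fell (9.86% of all genes). With the lesion Fhl2 fell in dSPN (-0.47) and none passed in iSPN, where 2.48% and 6.2% of all genes were called.

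Of 8 tested genes that are linked to Nr4a2 in dopamine neurons, 3 rose and 2 fell at the high dose in dSPN (median -0.17, all genes -0.04). Their share called was 62.5%, with 45.6% of all genes called, 20.1% higher and 25.5% lower. Th, tyrosine hydroxylase, which makes the precursor of dopamine, had values of 3.90 to 5.85 with saline and 7.03 to 8.37 under the high dose, without overlap, and rose by 2.85 (SE 0.26, adjusted p = 2.6e-15). Nrp1, a semaphorin receptor, rose by 2.46 and Slc18a2, the vesicular monoamine transporter, by 1.19 (adjusted p = 0.00277). Klhl1 fell by 1.31 and Dlk1 by 0.90. At the low dose Nrp1 (1.64), Th (1.49) and Slc18a2 (0.88) rose and Klhl1 fell (-0.99). In iSPN none passed at the high or low dose, where 9.86% and 4.18% of all genes were called. Nr4a2 rose in iSPN at both doses. With the lesion in iSPN Th rose by 1.15 (adjusted p = 0.0100) and Nr4a2 differed by 0.30 (adjusted p = 0.656). The part of Nr4a2 in the changes of these genes was not tested. Ddc, which makes dopamine from levodopa, did not pass at the high dose in dSPN (-0.39, adjusted p = 0.236).

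Of the 35 other nuclear receptors tested, which include the retinoid X receptors, 6 rose and 12 fell at the high dose in dSPN, and 4 rose and 8 fell at the low dose. As shares called these are 51.4% and 34.3%, near the 45.6% and 34.1% of all genes. The largest changes at the high dose were those of Ppard (1.64), Rarg (-1.64), the clock repressor Nr1d1 (-1.28), Nr2f1 (-1.13), Rara (1.12) and Esrra (1.04). The thyroid hormone receptor Thra moved opposite ways with the lesion, by 0.26 in dSPN and -0.51 in iSPN, and Esrrg rose in iSPN (0.52). At the high dose in iSPN Nr2f6 (1.06) and Rxrb (0.39) rose, and at the low dose Thra (0.23) rose and Rora fell (-0.41). Of 10 genes linked to Nr4a receptors in other tissues, 2 rose and 2 fell at the high dose in dSPN, and 2 rose and none fell at the low dose (all genes 20.1% and 25.5%, then 15.1% and 19%). Mcl1, a survival factor of the Bcl2 family, rose by 1.33 at the high and 1.11 at the low dose. Star, which carries cholesterol into mitochondria, changed by -1.15 at the high dose (adjusted p = 0.00431). Ccnd2, a cyclin, changed by -0.66 at the high dose (adjusted p = 1.05e-07) and by -0.53 in dSPN and -0.39 in iSPN with the lesion. Bcl2 fell with the lesion in both lines (-0.71 in dSPN, -0.50 in iSPN) and rose in dSPN with the high (0.71) and low (0.83) dose. In iSPN Bcl2 fell with the high dose (-0.55).

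The genes most like each member in pattern were taken by Pearson correlation over the 77 arrays, which share the treatment groups. For Nr4a1 these were Fosl2 (0.86), Fos (0.86), Crem (0.84), Coro1a (0.83) and Shisa2 (0.83), with Nr4a3 10th (0.80) and Nr4a2 172nd (0.67). For Nr4a2 they were Ina (0.95), Ptgs2 (0.94), Ccdc6 (0.94), Irs2 (0.94) and Tinf2 (0.94), and for Nr4a3 Midn (0.96), Fosl2 (0.95), Shisa2 (0.95), Arc (0.94) and Dusp14 (0.94). When each array was taken as its deviation from its group mean, Nr4a1 was most like Tiparp (0.55), Ina (0.54), Fos (0.54), Fosl2 (0.51) and Shisa2 (0.49), and Nr4a3 most like Fosl2 (0.63), Midn (0.61), Dusp14 (0.59), Egr1 (0.56) and Egr2 (0.53). The genes most like Nr4a2 on that measure were Impg1 (0.49), Skil (0.42), Slc13a3 (0.42), Fam83e (0.41) and C1qtnf1 (0.41). Pooled over the groups, the deviations of Nr4a1 and Nr4a3 correlated at 0.47, those of Nr4a1 and Nr4a2 at 0.12 and those of Nr4a2 and Nr4a3 at 0.08.

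Of 40 relations computed within the 8 groups, those of Nr4a1 with Nr4a3 were positive in 6 of 8 groups, and by Pearson's r 4 had an adjusted permutation p under 0.05, of which 1, in dSPN under the low dose, did so by Spearman's rho. In dSPN under the low dose r was 0.71 and rho 0.85 (n = 12, permutation p = 0.00825 and 0.00094, adjusted p = 0.0412 and 0.0376), and 0.92 without the 2 arrays farthest from the median. In iSPN under the low dose r was 0.98 (exact permutation p = 0.00241, adjusted p = 0.0321) and rho 0.88 (exact permutation p = 0.00724, adjusted p = 0.0600), but r was 0.53 without the 2 farthest arrays, of which array 3 is 1, so this relation rests on them. Nr4a1 and Nr4a2 had a positive r in 4 of 8 groups and none passed. Nr4a2 and Nr4a3 had a positive r in 5 of 8 groups, and 1 passed by Pearson's r, in dSPN under the low dose, with r of 0.75 and rho of 0.66 (permutation p = 0.0077 and 0.0229, adjusted p = 0.0412 and 0.0866). There r was 0.10 without the 2 farthest arrays, so this relation rests on them. Nr4a1 and Fos had a positive r in all 8 groups, and 2 passed by Pearson's r, in dSPN under the high and low doses. The largest r was in dSPN under the low dose, with r of 0.89 and rho of 0.82 (permutation p = 0.00011 and 0.00188, adjusted p = 0.0044 and 0.0376), and 0.83 without the 2 farthest arrays. In iSPN under the low dose r was 0.69 and rho 0.10, and r was -0.25 without the 2 farthest arrays. Nr4a2 and Th had a positive r in 4 of 8 groups and a negative r in the others. In dSPN under the low dose r was 0.77 and rho 0.71 (permutation p = 0.00475 and 0.0126, adjusted p = 0.0377 and 0.0600), and r was 0.63 without the 2 farthest arrays. In dSPN after lesion with saline r was -0.63 and rho -0.55 (permutation p = 0.0345 and 0.0872, adjusted p = 0.126 and 0.291), and r was -0.59 without the 2 farthest arrays.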

How the data were processed

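The deposited values were log2 expression per probe set of an Affymetrix mouse array, which the authors made with RMA in the affy package per the submitters' processing notes, with no version stated. RMA brings arrays to like distributions, and the array medians lay between 4.31 and 4.42. Scanner files were not used here, so no detection limit was computed and the number of arrays sets the precision. Of 45101 probe sets, 34958 carried 1 symbol, 932 several and 9211 none. A gene was represented by its single-symbol probe set with the highest mean, and 13271 genes whose mean exceeded 3.55, the 40th percentile over probe sets, were tested. A limma 3.58.1 fit (R 4.3.3, lmFit and eBayes) took 8 group means over 77 arrays, with 69 residual degrees of freedom. Tests are two-sided, p-values were adjusted by Benjamini and Hochberg's method over all genes of each comparison, and a gene was called, or passed, at an adjusted p under 0.05. A change is a difference of log2 means, and SE is its standard error from the fit. P-values measure the spread between single mice. The fit and its calls were tested on simulated data. Named beside the members are up to 6 called genes of each list by size of change, Th, Slc18a2, Rxrg and Crem, and the 5 genes most like each member. Genes named outside that rule were chosen after their values were seen. Members and lists were chosen with earlier results of these data known. Promoter sequences are RefSeq's (GRCm38.p6), and all 3 members matched. Alternatives were run as a fixed or random block, each line on its own arrays, array weights, trend and robust moderation, no filter, each probe set, median centring, single arrays left out and values within runs. Permutation tests and correlations used Python 3.11.15 with numpy 2.4.6.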

Additional observations from a re-analysis of the deposited data

Results flagged for a closer look

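In 2 of 15 sets of a member and a group of 4 to 10 arrays, a single array stood apart from the others by Dixon's test at the 95% level, where chance gives about 1 in 20. Nr4a1 in mock-lesioned iSPN reached 9.25 in array 2, with the next array at 7.91, and that array had the lowest Nr4a2 value of its group (3.81). Nr4a2 in lesioned iSPN with saline reached 6.39 in array 7, with the next at 5.26.

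The lines differed in their response by the test of the difference itself, taken as dSPN effect less iSPN effect. For the lesion this was -3.35 for Nr4a1 and -2.65 for Nr4a3, for the high dose 4.59 for Nr4a1, 3.46 for Nr4a2 and 5.33 for Nr4a3, and for the low dose 3.92, 2.83 and 4.94. Each was found between lines that share no run.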

How the results depend on the processing

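No paired analysis was possible because the replicate numbers follow accession order and pair no mice. The random block for run, each line on its own arrays, trend and robust moderation, no filter and median centring kept the direction and side of the threshold of every member's result. With run as a fixed block Nr4a3 with the lesion in iSPN (1.60) and Nr4a1 at the high dose in iSPN (-1.21) no longer passed, which left 1 member called in each, and between doses Nr4a3 turned to 0.055 in iSPN and to -0.0070 in the difference between lines. Array weights turned Nr4a1 between doses in iSPN to -0.082 and Nr4a2 between lines after lesion with saline to 0.030. The cause was not tested. Within runs the lesion change of Nr4a3 in dSPN (-2.00), those of Nr4a1 (3.37 and 3.03) and Nr4a3 (1.34 and 1.95) in iSPN, and in iSPN Nr4a1 at the high (-1.14) and low (-1.55) dose and Nr4a2 at the low dose (1.54) no longer passed, each on fewer arrays. Nor did Nr4a1 (0.53) and Nr4a2 (1.72) between doses in dSPN, Nr4a1 (1.34) and Nr4a3 (3.32) at the low dose against mock in dSPN in 1 of 2 runs, and Nr4a1 (1.88) and Nr4a2 (3.37) at the high dose against mock in iSPN.

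Probe set 1433422_at gave Nr4a2 0.20, 0.049 and -0.13 for lesion, high and low dose in dSPN, -0.020 and -0.050 for high and low dose in iSPN, 0.085, 0.069 and -0.084 for the differences between lines in lesion, high-dose and low-dose effect, and 0.16 between lines after lesion. Probe set 1433423_at gave 0.046 for lesion and 0.073 for low dose in dSPN, -0.078 and 0.020 for high and low dose and -0.099 between doses in iSPN, 0.31 and 0.052 for the differences in high- and low-dose effect, and -0.0039 between lines at the low dose. Probe set 1450749_a_at gave 0.21 for lesion in dSPN, 0.68 for low dose in iSPN, and 0.18 and 0.28 for the differences between lines in lesion effect and after lesion. For Nr4a3, 1421079_at gave 0.82 with the lesion and 0.15 between doses in iSPN and 0.48 between mock lines. Probe set 1421080_at gave 0.73 with the lesion, 0.86 at the high dose and 0.39 between doses in iSPN, 0.40 between mock lines and -0.0019 for the difference between lines in dose step.

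With single arrays left out, values ran from -0.20 to 0.049 for Nr4a2 with the lesion in dSPN, from -0.12 to 0.20 for Nr4a1 and from -0.30 to 0.054 for Nr4a3 between doses in iSPN, and from -0.16 to 0.15 for Nr4a2 between lines after lesion. None of these had passed. Nr4a1 ran from 0.66 to 0.89 between doses in dSPN and from 0.60 to 0.95 between lines at the low dose, and lost its call in 9 cases and 1 case.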
